A study of Mus musculus with 14 samples.

Results

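This account covers 10 transcripts that are made mainly in the red cell and platelet lineages, measured in whole mouse tumours after injections of cyclophosphamide or buffer. They are the alpha globin genes Hba-a1 and Hba-a2, the beta globin genes Hbb-bs and Hbb-bt, Alas2 and Slc4a1 of the erythroid lineage, and Pf4, Ppbp, Itga2b and Gp9 of the platelet lineage. The members were taken by symbol, and 10 of 10 were found among the 54532 genes of the deposited tables, each on 1 row. Tumours were grown from 4T1, a mouse line of triple-negative breast cancer, after 1000000 cells were placed under the skin of the mammary area. Treatment began on day 9, at a volume near 100 mm3, with an intraperitoneal injection of 100 µL every 6 days. The animals were killed for tumour collection 3 days after cycle 3. The PBS group received buffer (n = 4), the CTX100 group 100 mg/kg CTX (n = 5) and the CTX140 group 140 mg/kg CTX (n = 5), where CTX is cyclophosphamide, an alkylating drug. Strain, age and genotype of the mice were not given in the sources used here. Whether the libraries come from different mice is not stated either, and p-values then measure only the spread between these libraries, which may be technical. All tumours carried the same grafted line, and each library mixes tumour, stroma and blood.

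Red cells carry oxygen on haemoglobin, a tetramer of alpha and beta globin chains with haem. Globin, Alas2 and Slc4a1 transcripts rise while erythroblasts mature in the marrow and, in mice, in the spleen. They persist in reticulocytes, the young red cells that have lost their nucleus and still hold RNA. Platelets are shed by megakaryocytes and carry transcripts for chemokines of their alpha granules (Pf4, Ppbp) and for adhesion receptors of their surface (Itga2b, Gp9). Some of these names are less exclusive than they look, since Pf4 is also made by certain macrophages and Itga2b is an early marker of blood progenitors. In a bulk sample, fewer cells of a type and less RNA per cell cannot be told apart.

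The globin genes come in near-identical pairs, which limits what the counts of each gene can say. Hba-a1 (chromosome 11, 32283511 to 32284465, plus strand) and Hba-a2 (chromosome 11, 32296489 to 32297298, plus strand) lie 12023 bases apart in mm10. Their coding sequences of 429 bases differ at 1 base (C381T, counted from the A of the start codon, Hba-a1 base first), and the 142 encoded residues are identical. Hbb-bs (chromosome 7, 103826534 to 103828096, minus strand) and Hbb-bt (chromosome 7, 103812524 to 103813996, minus strand) lie 12537 bases apart. Their 444 coding bases also differ at 1 base (C417T, Hbb-bs base first), and their 147 residues are identical. The stretches with these differences, from the GENCODE M21 transcripts, are shown because in that reference they are the only coding bases that tell the copies apart. The strain of the mice is not given, so their own globin alleles may differ from the reference. Capitals mark the base that differs.
Hba-a1, coding bases 351 to 410: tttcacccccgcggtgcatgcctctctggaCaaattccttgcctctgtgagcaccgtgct
Hba-a2, coding bases 351 to 410: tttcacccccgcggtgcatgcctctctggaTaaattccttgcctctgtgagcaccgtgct
Hbb-bs, coding bases 385 to 444: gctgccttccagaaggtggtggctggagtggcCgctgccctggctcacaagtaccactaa
Hbb-bt, coding bases 385 to 444: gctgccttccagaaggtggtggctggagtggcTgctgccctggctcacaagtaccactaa
Of all 100-base windows of the transcripts, 56.5% in Hba-a1 and 74.5% in Hba-a2 occur in the other copy, as do 62.6% in Hbb-bs and 54.8% in Hbb-bt. The sources do not say how reads that fit both copies were counted. The split within a pair is therefore uncertain, and the sum over the 4 genes is the safer measure. Alas2 (chromosome X, 150547375 to 150570638, plus strand) lies within the span of Apex2 on the other strand, and the strand setting of the counting is likewise not given.

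The DNA before the start site was read for the members from RefSeq promoter windows (GRCm38.p6), which matched 9 of 10 members. Sequences are printed for Hba-a2, Alas2 and Pf4, the first pair because these erythroid transcripts moved together across libraries and Pf4 as the most abundant platelet transcript. Capitals mark the words searched, on both strands: the words of GATA factors, namely AGATAA or TGATAA with the forms AGATAG or TGATAG, and the word CCACCC, a core of KLF factor sites. The printed bases end where the gene model of the deposited tables begins.
Hba-a2, chr11:32296242-32296488, plus strand: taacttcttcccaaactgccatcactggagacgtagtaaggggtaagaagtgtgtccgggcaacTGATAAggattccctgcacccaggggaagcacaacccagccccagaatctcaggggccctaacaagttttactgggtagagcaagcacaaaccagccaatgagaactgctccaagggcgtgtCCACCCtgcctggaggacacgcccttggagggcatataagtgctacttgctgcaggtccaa
Alas2, chrX:150547167-150547374, plus strand: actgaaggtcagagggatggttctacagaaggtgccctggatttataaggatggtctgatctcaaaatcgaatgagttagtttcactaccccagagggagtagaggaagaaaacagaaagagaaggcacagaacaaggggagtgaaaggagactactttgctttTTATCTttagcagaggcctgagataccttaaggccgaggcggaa
Pf4, chr5:90772185-90772434, plus strand: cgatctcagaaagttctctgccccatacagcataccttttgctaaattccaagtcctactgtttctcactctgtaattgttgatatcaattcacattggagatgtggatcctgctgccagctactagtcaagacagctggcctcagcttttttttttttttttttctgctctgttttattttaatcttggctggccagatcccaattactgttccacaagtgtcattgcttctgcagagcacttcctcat
The Hba-a2 window held a GATA word 186 bases and a CCACCC word 64 bases before the RefSeq start, and the Alas2 window held a GATA word 86 bases before its start, printed as the reverse complement of a word searched. The CCACCC words of Alas2 lie in bases that are not printed. Over 250 bases, GATA words were found for Hba-a1, Hba-a2, Hbb-bs and Alas2 and CCACCC for Hba-a1, Hba-a2, Hbb-bt and Alas2, and neither was found in the windows of Pf4, Ppbp, Itga2b or Gp9. Among 32851 promoter windows of the same length, 26.5% held a GATA word and 28.1% held CCACCC, so both words are common.

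Library totals ran from 14423875 to 19282726 counts, and mitochondrial genes took 3.09% to 9.81% of them. The keratins Krt8 and Krt18, which mark carcinoma epithelium, averaged 967 and 727 CPM (counts per 1000000 of a library size scaled by edgeR's TMM factors) over the 14 libraries, against 11.7 CPM for Esr1, 0.983 for Pgr and 28.9 for Erbb2. A pair of libraries stood apart by liver transcripts. Summed over 12 genes of secreted liver proteins, a list chosen after the values were seen, library CTX140 5 held 910 CPM (Alb alone 500 CPM) and PBS 1 held 74.0 CPM. The other PBS libraries held 0.659 to 1.50 CPM, the CTX100 libraries 1.02 to 5.31 CPM, and CTX140 1 to 4 held 11.9 to 36.0 CPM. In CTX140 5 all 12 liver genes were at their highest and Afp, the fetal albumin homologue, reached 185 CPM against 11.0 to 26.4 CPM in the other 13 libraries. None of the 12 was at 0 in CTX140 5 or PBS 1, whereas 2 to 8 were at 0 in each of the other PBS and CTX100 libraries. Since CTX140 5 also held the highest level of every erythroid member, results are given with and without it, and the part of the liver transcripts in them was not tested. Leaving it out is thus a choice made from the members' own levels, so results without it describe the remaining libraries only.

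On the deposited FPKM scale, which is per transcript length, Pf4 was the most abundant member, with a mean of 193 FPKM over all libraries and rank 303 of 30859 genes with a count. Hbb-bs followed at 44.3 FPKM and Hba-a1 at 32.8 FPKM. Hbb-bt (6.72 FPKM), Ppbp (4.26 FPKM) and Hba-a2 (3.40 FPKM) formed a middle tier. Itga2b (0.699 FPKM), Alas2 (0.565 FPKM), Slc4a1 (0.395 FPKM) and Gp9 (0.130 FPKM) were low. The order of neighbours is not firm: the PBS values of Hbb-bs (47.9 to 121 FPKM), Pf4 (28.8 to 119 FPKM) and Hba-a1 (32.5 to 76.6 FPKM) overlapped. The ranking also turned with treatment. In PBS tumours Hbb-bs led with a mean of 93.0 FPKM (SD 32.1, n = 4) and Pf4 had 73.1 FPKM (SD 36.7), whereas in CTX100 tumours Pf4 had 141 FPKM (SD 52.7, n = 5) and Hbb-bs 9.86 FPKM (SD 9.67). Pf4 moved from rank 760 among the genes of the PBS group to 392 in CTX100 and 197 in CTX140. The share of counts taken by the 4 globin genes ranged over 0.00657% to 0.0165% in PBS libraries. It ranged over 0.000358% to 0.00367% in the CTX100 group and 0.000589% to 0.0284% in the CTX140 group.

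Globin transcripts were lower in every CTX100 tumour than in every PBS tumour. Their summed level was 154, 173, 69.7 and 130 CPM in PBS 1 to 4 and 3.44, 4.06, 27.5, 38.0 and 7.92 CPM in CTX100 1 to 5. The medians were 142 and 7.92 CPM, and the lowest PBS library, PBS 3, lay above the highest treated one, CTX100 4. Hbb-bs, the major beta chain copy by counts here, had 84.0, 93.4, 36.8 and 72.7 CPM in PBS and 0.664, 2.03, 13.8, 17.4 and 4.27 CPM in CTX100. Hba-a1, the alpha chain copy with more counts, had 55.0, 62.4, 26.3 and 43.3 CPM in PBS and 1.27, 1.37, 10.7, 16.1 and 2.10 CPM in CTX100. Within CTX100 the libraries spread over more than a factor of 10, with CTX100 1 and 2 lowest and CTX100 3 and 4 highest for both genes. The minor copies showed the same separation: Hba-a2 ran from 2.38 to 6.21 CPM in PBS and from 0.0597 to 1.56 CPM in CTX100, and Hbb-bt from 4.26 to 11.7 CPM and from 0.597 to 2.92 CPM.

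In the edgeR quasi-likelihood fit over all 14 libraries, the change from PBS to CTX100 was a log2 fold change of -2.89 ± 1.19 (SE) for Hba-a1, -3.10 ± 1.03 for Hba-a2, -3.23 ± 1.23 for Hbb-bs and -2.31 ± 1.05 for Hbb-bt. The edgeR p-values, adjusted by Benjamini-Hochberg over 15360 genes, were 0.233, 0.133, 0.193 and 0.267, so that no globin gene passed 0.05. Of the 9 members with enough counts to be tested, 0 were called in this comparison, beside 1.6% of all genes tested; 7 had an unadjusted p under 0.05, beside 17.9% of all genes, and DESeq2, which gave an adjusted p for 6 of them, called 1 (Ppbp, higher), beside 3.31% of genes. Groups did not overlap, with CTX100 lower, for 5 of the 9 (the 4 globin genes and Alas2), beside 3.55% of all genes. These 5 share their libraries and cells of origin, so they are not independent observations. The fit shares its estimate of the spread with CTX140, where CTX140 5 lies above the rest of its group. Without that library, Hba-a2 (adjusted p = 0.0397, edgeR) and Alas2 (0.0209) were called lower in CTX100, beside 0.473% of genes called lower, and Hba-a1 (0.0532), Hbb-bs (0.0704) and Hbb-bt (0.0516) were just above the threshold at nearly the same fold changes. With the PBS and CTX100 libraries fitted alone, 3 members (Hba-a2, Hbb-bs and Hbb-bt) were called lower, beside 1.12% of genes.

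**Figure D1:**
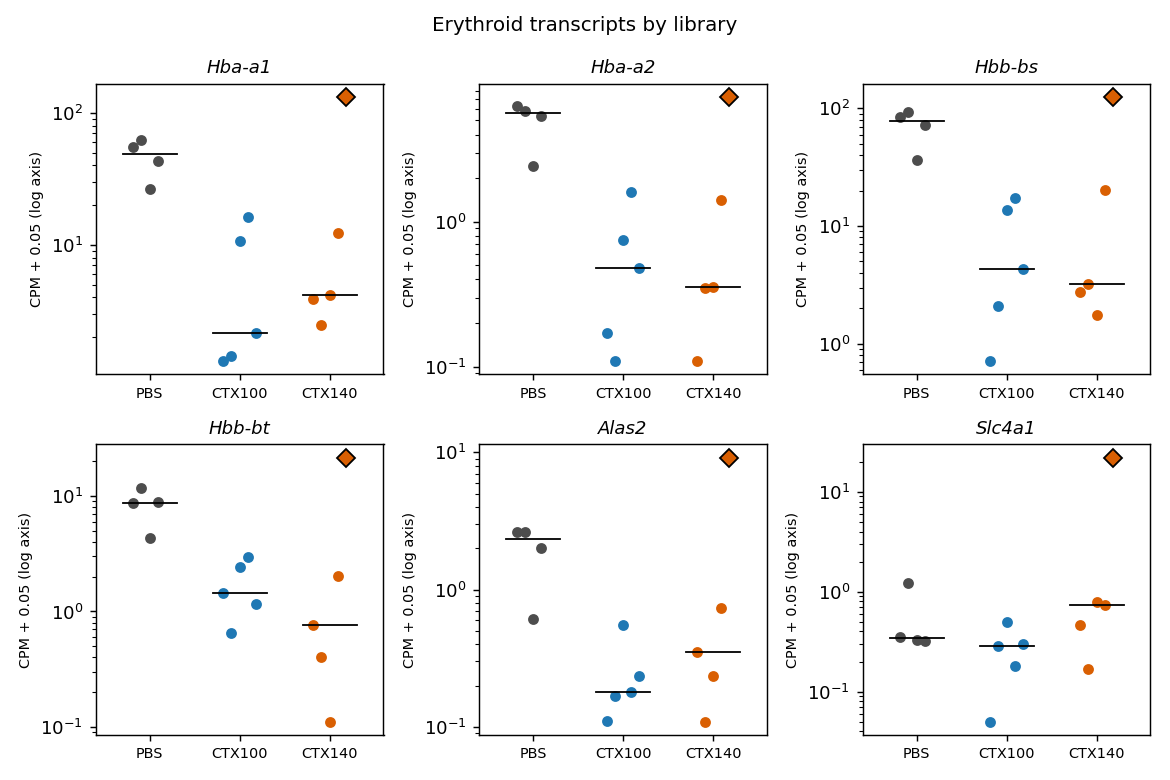
Level of each erythroid member in each library, as CPM plus 0.05 on a log axis, for PBS (n = 4), CTX100 (n = 5) and CTX140 (n = 5); each point is a library, the diamond is CTX140 5 and the line is the group median. The 4 globin genes lie lower in every treated library other than CTX140 5 than in any PBS library, and CTX140 5 lies above every other library for all 6 genes.

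At the higher dose 4 of the 5 tumours looked like those of the lower dose and the other did not. The globin sum was 7.31, 6.24, 6.20 and 35.7 CPM in CTX140 1 to 4 and 287 CPM in CTX140 5. Hbb-bs had 2.70, 3.15, 1.72, 20.1 and 125 CPM, and Hba-a1 had 3.83, 2.44, 4.11, 12.2 and 133 CPM in CTX140 1 to 5. Thus CTX140 5 exceeded the highest PBS library for both genes, while the other 4 lay below the lowest PBS library. Over all libraries the log2 fold changes of CTX140 against PBS were -0.59 ± 1.12 (SE) for Hba-a1, -1.39 ± 0.95 for Hba-a2, -1.22 ± 1.15 for Hbb-bs and -0.76 ± 1.00 for Hbb-bt, none called (edgeR adjusted p between 0.310 and 0.741, unadjusted p between 0.162 and 0.610). Of all 6 erythroid members 1 (Slc4a1) had an unadjusted p under 0.05, beside 35.7% of genes, and DESeq2 called 0 of the 3 to which it gave an adjusted p. Slc4a1 had 411 counts in CTX140 5 against 81 in the other 13 libraries together. In the fit without CTX140 5 alone it had too few counts to be tested, so its p is no support for a change. Without CTX140 5 the same changes were -3.06 ± 0.77, -3.29 ± 0.79, -3.39 ± 0.94 and -3.43 ± 0.67, with edgeR adjusted p-values of 0.0144, 0.00997, 0.0235 and 0.00311. All 4 globin genes and Alas2 were then called lower, beside 9.84% of genes called lower, and the 4 globin genes had no overlap with PBS, beside 8.87% of genes. With PBS 1, the other library with liver transcripts, left out as well, the same 5 members were called lower (edgeR adjusted p between 0.00552 and 0.0319), beside 10.3% of genes. In the edgeR fit the globin calls at the higher dose thus depend on whether CTX140 5 is counted. CTX140 5 was singled out for its high erythroid levels. The calls and the lack of overlap without it therefore give no independent support for a fall. With all libraries kept, limma on log2(FPKM + 1) called Hba-a2 lower in CTX140 (-1.72 on that scale, adjusted p = 0.0468), beside 9.19% of genes.

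The doses could not be told apart by the globin genes. The log2 fold changes of CTX140 against CTX100 ran from 1.56 to 2.30 over all libraries, none called (edgeR adjusted p between 0.261 and 0.387). No member at all was called between the doses, beside 1.25% of all genes. Of the 9 tested, 4 had an unadjusted p under 0.05, beside 22.3%, among them Slc4a1, again through CTX140 5. DESeq2 called 2 (Pf4 and Itga2b, higher), beside 4.7%. Without CTX140 5 the globin changes were -0.17 for Hba-a1, -0.20 for Hba-a2, -0.16 for Hbb-bs and -1.12 for Hbb-bt, with SEs of 0.64 to 0.86. A difference of several-fold in either direction would thus not have been detectable. With both doses set against PBS, 0 of the 6 erythroid members passed in edgeR over all libraries (Hba-a2 and Hbb-bs had unadjusted p-values under 0.05, at 0.0141 and 0.0382, beside 29.7% of genes), beside 6.6% of genes called lower, and 5 were called lower without CTX140 5 (edgeR adjusted p between 0.00251 and 0.0103), beside 6.79%.

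Within the pairs, the balance of the copies was steady in PBS tumours. Hba-a1 had 8.12 to 11.1 counts per count of Hba-a2 in the PBS libraries, and Hbb-bs had 7.95 to 9.82 counts per count of Hbb-bt. In the CTX100 libraries the beta ratio was lower in each, from 0.478 (11 against 23 counts in CTX100 1) to 5.96, while the alpha ratio ran from 4.86 to 23.0. In the CTX140 libraries the alpha ratio ran from 8.20 to 64.0 and the beta ratio from 3.75 to 28.0, and CTX140 5, with 2344 and 400 counts, had 5.86. Most treated libraries held few counts of the minor copies, down to 1 for Hbb-bt in CTX140 3. Reads shared between copies add to the uncertainty, as would alleles of these mice that differ from the reference. Alpha counts per beta count spanned 0.596 to 0.700 in the PBS libraries. They spanned 0.471 to 0.869 at the lower dose and 0.616 to 2.48 at the higher one.

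Alas2 encodes the erythroid form of the enzyme that starts haem synthesis, and it followed the globin genes. It had 43, 38, 8 and 36 counts in PBS 1 to 4, 1, 2, 10, 2 and 3 counts in CTX100 1 to 5, and 5, 1, 3, 10 and 170 counts in CTX140 1 to 5. PBS 3 was low for Alas2 as it was for the globin genes, and in CPM it still lay just above CTX100 3 (0.559 against 0.501 CPM) and below CTX140 4 (0.683 CPM). The change was -3.18 ± 1.19 (SE, log2) for CTX100 against PBS (edgeR adjusted p = 0.176) and 0.11 ± 1.01 for CTX140 against PBS (0.951). Without CTX140 5 the second of these became -2.66 ± 0.66 (edgeR adjusted p = 0.0103). Per 1000 globin counts, Alas2 had 8.02 to 16.9 counts in PBS and 31.7 counts in CTX140 5, with an exact binomial 95% interval of 27.1 to 37.0 that covers counting error only. That ratio was not outside the treated libraries, which had 3.42 to 29.4 in CTX100 and 9.52 to 41.0 in CTX140 1 to 4, from 1 to 10 Alas2 counts each.

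Slc4a1 encodes band 3, the anion exchanger of the red cell membrane (chromosome 11, 102348824 to 102366203, minus strand), and its levels in CTX100 and CTX140 1 to 4 overlapped those in PBS, unlike those of the globin genes. It had 5, 17, 4 and 5 counts in PBS, 0, 4, 9, 2 and 4 counts in CTX100, and 7, 2, 12, 10 and 411 counts in CTX140. CTX140 5 thus held more Slc4a1 counts than the other 13 libraries together (81), whereas the rest of the groups overlapped. The log2 fold change was -1.15 ± 1.47 (SE) in CTX100 (edgeR adjusted p = 0.729) and 3.26 ± 1.31 in CTX140 (0.0895), neither called. With CTX140 5 and PBS 1 left out it was -0.22 ± 0.77 in CTX140 (edgeR adjusted p = 0.869), and without CTX140 5 alone the gene did not have enough counts to be tested. Per 1000 globin counts Slc4a1 had 1.96 to 6.70 counts in PBS libraries and 76.8 in CTX140 5 (exact binomial 95% interval 69.3 to 84.9). The other treated libraries spread widely on few counts, from 0 to 58.8 in CTX100 and from 19.1 to 119 in CTX140 1 to 4, so the ratio does not set CTX140 5 apart from them. Against the highest PBS library, CTX140 5 had 1.65 times the globin sum, 3.51 times the Alas2 and 18.9 times the Slc4a1 level.

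**Figure D2:**
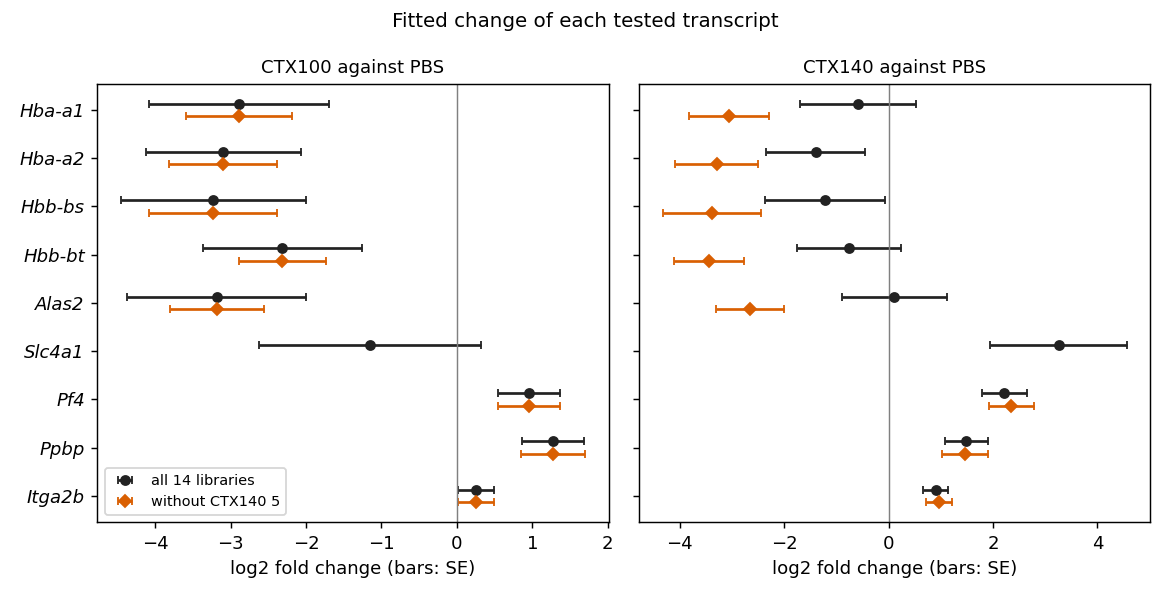
Fitted log2 fold change of each tested member against PBS for CTX100 (left) and CTX140 (right), with SE bars, from all 14 libraries (circles) and without CTX140 5 (diamonds). In CTX140 the globin genes and Alas2 move from between -1.39 and 0.11 to between -2.66 and -3.43 once CTX140 5 is left out, while Pf4, Ppbp and Itga2b stay above 0; Slc4a1 has no value without that library.

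Some other red cell genes were also highest in CTX140 5. Of 16 further genes of the red cell membrane and skeleton, 9 were highest in CTX140 5 and 5 were over 5-fold above the next library, beside 9.94% and 0.322% of the 22057 genes with at least 10 counts. Of those 5, 3 are given here, named after their values were seen. Over CTX140 5 against the other 13 libraries together, Epb42 had 20 counts against 1, Rhag had 24 against 0, and Kel had 21 against 4. These 3 reached 10 counts only through CTX140 5. Their high place there was fixed by that bound and is no support. Of 16 late erythroid genes with enough counts, 1 of them shared with the membrane list, 8 were highest in CTX140 5, including Hemgn (72 counts against 24) and Trim10 (54 against 10). Of 12 haem synthesis genes 3 were highest in CTX140 5 and 1 was over 5-fold above the next library, Tspo2, the erythroid translocator protein, with 17 counts against 1. Tspo2 too reached 10 counts only through CTX140 5. Fech and Urod, enzymes of the pathway, were at 0.693 and 0.684 of the highest other library. Of 11 erythroid regulators 4 were highest in CTX140 5 and 0 were over 5-fold. The transcription factor gene Gata1 had 1.28 CPM in CTX140 5 against at most 1.08 CPM elsewhere, and Klf1 1.34 against 0.820 CPM. Among all 71 genes over 5-fold above every other library, Alb, Afp and Ahsg of the liver were the most abundant, and Slc4a1 was the most abundant red cell gene.

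**Figure D3:**
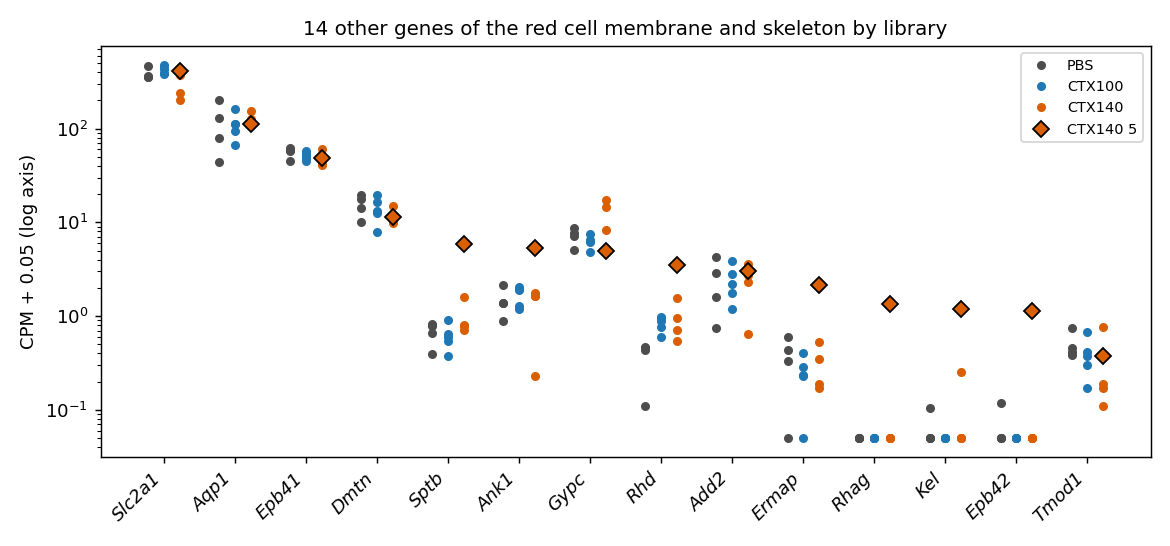
Level of 14 genes of the red cell membrane and skeleton other than Slc4a1 in each library, as CPM plus 0.05 on a log axis, ordered by CTX140 5 (diamond); points are the other libraries, coloured by group. CTX140 5 lies above every other library for 7 of the 14, whereas the broadly expressed Slc2a1, Aqp1 and Epb41 lie within the range of the rest.

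The median changes of these lists between treatments are set beside a median of -0.01 in CTX100 and 0.02 in CTX140 for all genes. Of 11 tested haem synthesis genes, 0 were called in CTX100 and 1 rose in CTX140: Alas1, the housekeeping form of the enzyme that Alas2 replaces in red cells, with a log2 fold change of 0.51 ± 0.13 (SE, edgeR adjusted p = 0.0105). The list's median was -0.02 in CTX100 and 0.00 in CTX140. Of 9 tested genes of the membrane list, 1 rose in CTX140 (Rhd, 2.12 ± 0.60, edgeR adjusted p = 0.0197; 1.46 and 0.0499 without CTX140 5), with list medians of -0.05 and 0.16. Of 8 tested erythroid regulators 0 were called at either dose in edgeR or DESeq2 (1 and 0 had an unadjusted edgeR p under 0.05), with medians of -0.12 and 0.22; Tfrc, the transferrin receptor, had 143, 134 and 127 CPM on average in PBS, CTX100 and CTX140. Of 11 tested late erythroid genes, 3 rose in CTX140 (Car2, Isg20 and Ube2l6) and 2 fell (Bnip3l and Xpo7), beside 11.1% and 10.1% of all genes, with medians of -0.06 and 0.44. In CTX100 edgeR and DESeq2 called 0 genes of the haem, membrane and late erythroid lists, where 1, 1 and 3 had an unadjusted edgeR p under 0.05. Car2, a carbonic anhydrase of red cells and many other cells, rose by 1.89 ± 0.29 on the log2 scale (edgeR adjusted p = 0.000535), and Bnip3l, a mitophagy receptor, fell by 0.53 (0.00954); both were still called without CTX140 5, and Xpo7 was not (edgeR adjusted p = 0.05005).

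Haemoglobin and iron clearance genes were also counted. Of 12 tested, 1 rose in CTX100 and 3 in CTX140, with medians of 0.05 and 0.52. Haptoglobin (Hp), the plasma protein that binds free haemoglobin and is also made by granulocytes, averaged 42.0 CPM (SD 13.7, n = 4) in PBS, 94.6 CPM (SD 15.4, n = 5) in CTX100 and 202 CPM (SD 21.4, n = 5) in CTX140. Its log2 fold changes were 1.17 (edgeR adjusted p = 0.0158) and 2.26 (2.89e-05). Blvrb, a biliverdin reductase, and Ftl1, the ferritin light chain, rose in CTX140 by 0.88 and 0.58.

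The transcripts of the platelet lineage went the other way, and CTX140 5 did not stand apart in them. Pf4 (chromosome 5, 90772435 to 90773383, plus strand), the platelet factor 4 chemokine, had 85.7, 54.5, 50.4 and 20.9 CPM in PBS 1 to 4, 127, 126, 138, 57.8 and 64.2 CPM in CTX100 1 to 5, and 194, 455, 252, 177 and 147 CPM in CTX140 1 to 5. Every CTX140 library lay above every PBS and every CTX100 library, while PBS and CTX100 overlapped through PBS 1. Pf4 rose in CTX140 against PBS by 2.21 ± 0.43 (SE, log2; edgeR adjusted p = 0.00342), a 4.63-fold change, higher in 5 of 5 libraries than in any PBS library. In CTX100 the change was 0.96 ± 0.41 (edgeR adjusted p = 0.247), and between the doses it was 1.26 ± 0.39 (0.0896), so the difference between doses did not pass the test. With CTX140 5 and PBS 1 left out the dose difference was 1.38 ± 0.36 (edgeR adjusted p = 0.0421), beside 4.42% of genes called higher.

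Ppbp (chromosome 5, 90768518 to 90770063, plus strand), the pro-platelet basic protein, lies 2371 bases from Pf4. It had 3.13, 2.19, 1.89 and 1.37 CPM in PBS, 4.89, 7.71, 7.61, 3.31 and 2.47 CPM in CTX100, and 2.94, 3.98, 6.26, 10.7 and 6.37 CPM in CTX140. The PBS libraries were the low ones, with PBS 1 overlapping the lowest library of each treated group. Ppbp rose in CTX140 by 1.49 ± 0.41 (SE, log2; edgeR adjusted p = 0.0186), lost the call without PBS 3 (0.0591) or PBS 4 (0.0710), and had a log2 fold change of 1.28 ± 0.41 in CTX100 (0.117). Although neighbours, the pair did not keep 1 ratio: Pf4 had 15.2 to 27.4 counts per Ppbp count in PBS tumours, against 16.4 to 25.9 at the lower dose and 16.6 to 114 at the higher one. CTX140 2 was the highest library for Pf4 and CTX140 4 the highest for Ppbp.

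Itga2b (chromosome 11, 102453297 to 102470122, minus strand), the integrin alpha chain of the fibrinogen receptor, was low and had the smallest change of the 3 tested platelet members. It had 2.23, 2.66, 2.73 and 3.46 CPM in PBS, 3.86, 2.51, 3.21, 3.70 and 3.22 CPM in CTX100, and 5.57, 3.86, 5.46, 6.90 and 4.23 CPM in CTX140. It rose in CTX140 by 0.91 ± 0.24 (SE, log2; edgeR adjusted p = 0.0140), a 1.87-fold change. In CTX100 the change was 0.25 ± 0.24 (edgeR adjusted p = 0.626), and CTX140 exceeded CTX100 by 0.66 ± 0.22 (0.105), not called. The lowest CTX140 library and the highest CTX100 library both had 3.86 CPM, from 65 and 64 counts, so they are separated by less than the worth of 1 count. Gp9, the platelet glycoprotein IX gene (chromosome 6, 87778072 to 87779768, plus strand), was the member with too few counts for the test. Its counts were 0, 0, 1 and 0 in PBS, 1, 1, 4, 3 and 2 in CTX100, and 4, 2, 6, 1 and 2 in CTX140. The ratio to PBS per library size was 8.27 (exact 95% interval 1.20 to 356) in CTX100 and 11.5 (1.77 to 484) in CTX140, intervals that cover counting error over pooled libraries only.

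Thus Pf4, Ppbp and Itga2b, 3 of the 9 tested members, were called higher in CTX140, beside 11.1% of genes tested, and 0 were called lower, beside 10.1%. Without CTX140 5 the same 3 were called higher, beside 11.9% of genes, with edgeR adjusted p-values of 0.00293 for Pf4, 0.0274 for Ppbp and 0.0121 for Itga2b. Pf4 and Itga2b did not overlap between CTX140 and PBS, beside 7.34% of genes, nor between CTX140 and CTX100, beside 2.33%. With both doses set against PBS, Pf4 (1.58 ± 0.39, edgeR adjusted p = 0.0182) and Ppbp (1.38 ± 0.38, 0.0250) were called higher, beside 6.6% of genes, and both lost the call without PBS 3 or PBS 4 (0.0667 to 0.106). DESeq2 called these and Itga2b higher, beside 8.61%.

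**Figure D4:**
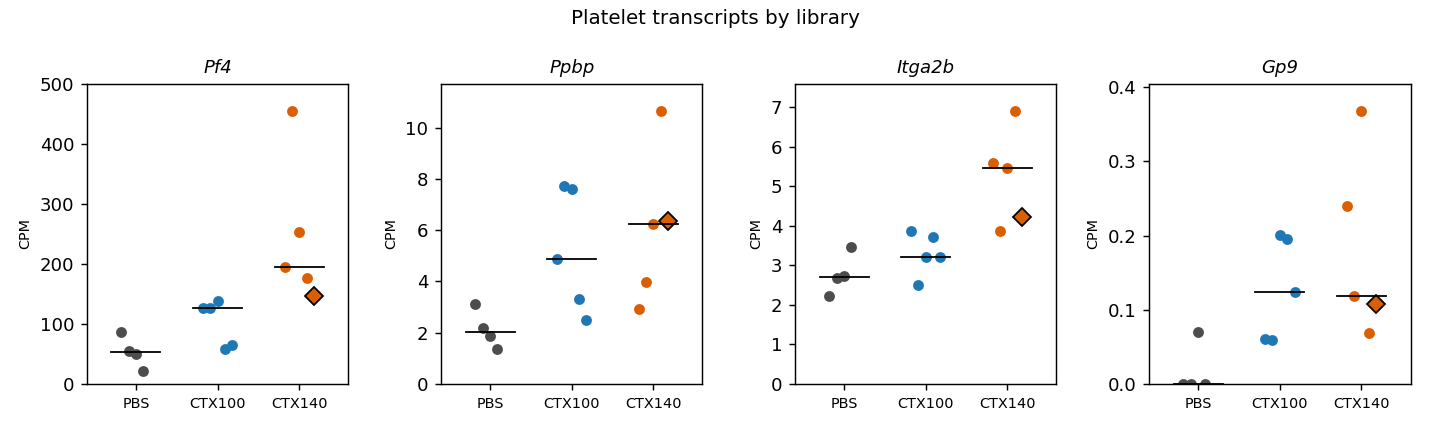
Level of each platelet member in each library, in CPM on a linear axis from 0, for PBS (n = 4), CTX100 (n = 5) and CTX140 (n = 5); each point is a library, the diamond is CTX140 5 and the line is the group median. For Pf4 all CTX140 libraries (147 to 455 CPM) lie above all others, CTX140 5 is the lowest of its group for Pf4 and inside the range of its group for the other 3, and Gp9 stays below 0.4 CPM.

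Some genes that define platelets narrowly, chosen after their values were seen, were at or near 0. Gp1bb, which encodes a chain of the receptor to which Gp9 also belongs, had 0 counts in all 14 libraries, but it overlaps Sept5 and Gm49601 on the same strand, which makes its count uncertain. Summed over the 14 libraries, the collagen receptor gene Gp6 had 7 counts and the platelet tubulin gene Tubb1 had 13. All of them lay in treated libraries. Over PBS, CTX100 and CTX140 1 to 4, Gp6 had 0, 2 and 5 counts and Tubb1 had 0, 5 and 8. Gp1ba and Gp5, the other chains of the Gp9 receptor, had 73 and 34 counts, of which 14 and 8 lay in PBS. Of 25 further platelet genes 16 could be tested: 0 were called in CTX100 (0 with an unadjusted edgeR p under 0.05 and 0 in DESeq2), and in CTX140 2 rose (Vwf and Nrgn) and 1 fell (Itgb3), with list medians of -0.04 and 0.14. Vwf, the von Willebrand factor gene that endothelium also expresses, rose by 1.87 ± 0.55 (SE, log2; edgeR adjusted p = 0.0271), and Nrgn, a platelet and neuronal transcript, by 1.61 ± 0.40 (0.0104). Itgb3, which encodes the beta chain that pairs with Itga2b, fell by 0.48 (edgeR adjusted p = 0.0392, and 0.0639 without CTX140 5), whereas Itga2b rose. In PBS Itgb3 had 2769 counts against 178 of Itga2b, and whether both came from the same cells was not tested. Thbs1, Plek and F13a1, the most abundant of the list, had fold changes of 0.01, 0.04 and -0.60 in CTX140 on the log2 scale, none called.

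Markers of other cells that can hold these transcripts differed in how they moved, and their counts are set beside 1.2% of all genes called higher in CTX100 and 11.1% in CTX140. Of 7 tested mast cell genes, 2 rose in CTX100 and 6 in CTX140, and their summed level was 42.9 to 59.2 CPM in PBS, 91.0 to 176 CPM in CTX100 and 126 to 180 CPM in CTX140. Of 9 granulocyte precursor genes, 2 and 7 rose, with sums of 24.0 to 59.2, 31.3 to 62.5 and 67.4 to 152 CPM. Of 12 macrophage genes, 0 were called in CTX100 (1 at an unadjusted p under 0.05, 1 in DESeq2), and in CTX140 Cd68 rose and Cx3cr1 fell (3 rose and 1 fell without CTX140 5). Their sums were 1957 to 3499, 1430 to 2932 and 1863 to 12694 CPM, and the highest was CTX140 2, the library with the most Pf4. Without CTX140 2, Pf4 rose by 1.87 (log2) in CTX140 (edgeR adjusted p = 0.00700). Of 9 genes of tissue-resident type macrophages, a class that can express Pf4, 1 rose in CTX140 (Gas6), with sums of 266 to 870, 262 to 650 and 342 to 1430 CPM and again the highest in CTX140 2. In CTX100 0 of the 9 were called (1 at an unadjusted edgeR p under 0.05, 0 in DESeq2). Blood endothelium had 0 of 13 genes called at either dose in edgeR (0 and 4 at an unadjusted p under 0.05, 0 and 2 in DESeq2, 2 in CTX140 without CTX140 5) and sums of 271 to 402, 264 to 416 and 292 to 594 CPM. Every gene of these lists was in the tables. The part of any of these cells in the rise of Pf4, Ppbp and Itga2b was not tested.

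Described over the 14 libraries on the log2 CPM scale, the erythroid members kept close company. Pearson's r between pairs of globin genes ran from 0.87 to 0.97, and Alas2 had r of 0.85 to 0.91 with them, values that share libraries and depth. Slc4a1 had 0.47 to 0.62 with the globin genes and 0.13 to 0.47 without CTX140 5. For deviations from the group means it had 0.72 to 0.80 with them and 0.91 with Alas2. These deviations include CTX140 5, and their r was not computed without it. Pf4 had r of 0.69 with Ppbp and 0.50 with Itga2b over all libraries, but 0.40 and -0.58 for deviations from the group means, opposite in sign within groups for Itga2b. Pf4 had r of -0.47 to -0.62 with the globin genes, and -0.41 to -0.42 within groups. Of 18 list means, Pf4 had its highest r with granulocyte precursors (0.89), iron clearance genes (0.88), fibroblasts (0.87), mast cells (0.83) and carcinoma epithelium (0.82). Within groups these were 0.60, 0.77, 0.50, 0.49 and 0.43. With macrophages it had 0.38 over all libraries and 0.67 within groups.

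By the same measure, the non-member genes nearest to the mean of the 4 globin genes were Zfp189 (r = 0.82), Ears2 (0.81), Gm43031 (0.81) and Tfap4 (0.80), none of them an erythroid marker. Each was below the lowest r between 2 globin genes (0.87). Those nearest to the mean of the platelet members were Gpt2 (r = 0.97), Hp (0.96), Serpina3n (0.95) and Car4 (0.95). Serpina3n ran from 0.494 to 67.6 CPM and Hp from 23.4 to 229 CPM across the libraries.

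**Figure D5:**
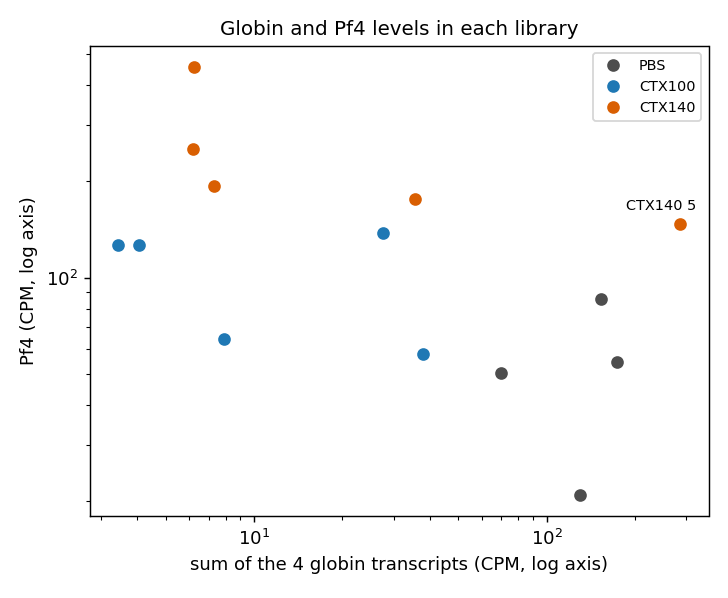
Sum of the 4 globin transcripts (CPM, log axis) against Pf4 (CPM, log axis), with 1 point per library coloured by group. PBS libraries sit at high globin and low Pf4, CTX140 1 to 4 at low globin (6.20 to 35.7 CPM) and high Pf4, and CTX140 5 at the highest globin level (287 CPM) with Pf4 of 147 CPM, the lowest of its group.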

How the data were processed

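Bulk RNA was measured in 14 tumour libraries, grouped by their labels (PBS 4, CTX100 5, CTX140 5). Counts per gene were deposited by the authors as whole numbers without normalisation, as the values show. The FPKM values were deposited by the authors as well, and each equals the count divided by gene length and by 1 constant per library (largest relative deviation 5.2e-15). Per the submitters' processing notes, mm10 and DESeq2 were used, with no role stated. The aligner, the counter and whether strand was used are not stated. There were 0 unmapped sample columns.

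The test was edgeR 4.0.16 (R 4.3.3) with TMM factors and filterByExpr by group at a minimum count of 10, which kept 15360 of 54532 genes. All 14 libraries entered 1 robust quasi-likelihood fit with two-sided tests, and Benjamini-Hochberg adjustment ran over all genes tested. Calls needed an adjusted p under 0.05. Library totals were 14423875 to 19282726 counts. The SEs of the fit rest on the spread between libraries, whereas the exact intervals cover counting error only. CPM used TMM-scaled library sizes, and log2 CPM a prior count of 2. Alternatives were RLE factors, totals without the member globins, no filter, a filter of 1 CPM in 4 libraries, DESeq2 1.42.0, limma 3.58.1 on log2 FPKM with pseudocounts of 1 and 0.1, only the groups compared, a replicate block, and each library left out. Leaving out both libraries with liver transcripts was chosen after seeing the data. The edgeR fit was tested on simulated data with 200 changed genes.

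The rule for named genes took all members, the 3 most abundant genes of each list with up to 3 called ones of smallest p, and the 8 genes nearest by Pearson's r to each member mean, of which 4 are printed. Other genes, among them those named for their counts in CTX140 5 and the platelet receptors near 0, were chosen after their values were seen. The members and lists were chosen with earlier results of these data known. Sequences came from GENCODE M21 transcripts and RefSeq promoter windows of GRCm38.p6, which matched 9 of 10 members. A few genes of the lists are not reported here by name.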

Additional observations from a re-analysis of the deposited data

Results flagged for a closer look

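For each member and group, the gap between an extreme library and its nearest neighbour was compared with the group's whole range on the log2 CPM scale, with Dixon's 95% critical values. Of 30 such tests 4 exceeded the critical value, where chance gives about 1 in 20. In CTX140, Slc4a1 was highest in CTX140 5, at 22.0 CPM, with a gap of 0.718 of the range, just over the critical 0.71. For the 4 globin genes and Alas2 the gap below CTX140 5 was 0.431 to 0.620 of the range. CTX140 5 thus did not pass this outlier rule for those genes. In PBS, Slc4a1 was far highest in PBS 2, at 1.16 CPM, a level of 17 counts. Hba-a2 was far lowest in PBS 3, at 2.38 CPM, the library that was also lowest in PBS for the other globin genes and Alas2. Gp9 was far highest in PBS 3, at 0.0699 CPM, which is 1 count in a group whose other libraries had 0.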

How the results depend on the processing

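The direction of the globin, Pf4, Ppbp and Itga2b changes against PBS held under every alternative run. Leaving out 1 library at a time gave 17 to 686 genes called in CTX100 (245 with all), 1975 to 3894 in CTX140 (3268), 0 to 1007 between the doses (192) and 768 to 2796 for both doses (2027). Members called then ran over 0 to 2, 2 to 8, 0 to 0 and 0 to 7, against 0, 3, 0 and 2. Without PBS 3 the CTX100 count fell to 17. DESeq2 called 821 genes in CTX100 and 1264 between doses, with 1 and 2 members. With only the groups compared, 529 and 1878 genes were called in CTX100 and CTX140, with 3 members in CTX100; both doses had no such fit. limma with a pseudocount of 1 called 148 genes in CTX100, and both pseudocounts called 5 members for both doses, where no filter called 1. With both liver-transcript libraries left out, 999 genes were called between doses, and 1, 8, 1 and 7 members in the 4 comparisons. Of 13 pairs of libraries with the same replicate number, 6 had r over 0.1, the highest 0.431. With no differently numbered pairs set beside them, this cannot decide whether the replicate numbers pair the libraries. A replicate block called 293 genes between doses, with 1 member there and 4 for both doses, and called Hba-a2 lower in CTX140 (-3.22, adjusted p = 0.0326). The sign of Alas2 in CTX140 turned from 0.11 to -0.23 and -1.11 in limma (pseudocounts 1 and 0.1), -2.14 with the replicate block, -2.49 without the liver-transcript libraries, and ran from -2.66 to 0.42 over single libraries left out. Slc4a1 became -0.22 in CTX140 without the liver-transcript libraries, and for both doses -0.78 there and -0.78 with the block. Between the doses, Hbb-bt became -0.41 in limma (0.1), -0.36 with the block and -1.13 without the liver-transcript libraries, where Hba-a1, Hba-a2 and Hbb-bs became -0.17, -0.20 and -0.16. Over single libraries left out these ran from -1.12 to 1.87, -0.17 to 2.98, -0.20 to 2.45 and -0.16 to 2.54, and Ppbp from -0.094 to 0.39. The lowest of these globin values were those without CTX140 5, and the lowest of Ppbp that without CTX140 4; the cause was not tested. Depth limits Gp9, Slc4a1 and the minor globin copies most.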
